A study of Caenorhabditis remanei with 28 samples.

Results

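The genes described here are the 60 genes of Caenorhabditis remanei that were lowest in heat-selected larvae when set against 3 other populations. They were chosen by their mean level in CPM, the counts of a gene scaled to a common total of gene counts per library. Of 25337 gene identifiers, 8241 had a mean of at least 5 CPM in each of the oxidative-selected, control-selected and ancestor populations. Each of these was scored by the smallest of its 3 log2 ratios of another population's mean plus 1 to the heat mean plus 1, and the 60 genes with the highest scores are the members. The levels of heat against the other populations thus selected the members, and they are given below as a description with no test.

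Larvae of 4 populations were compared. The heat-selected population gave 8 libraries, the oxidative-selected population 6 and the control-selected population 8, and all 3 were derived from PX443, the strain of the ancestor (6 libraries). Worms of every population were fed E. coli OP50 at 20 °C, and bleached embryos spent 20 h unfed in buffer. The series is described as profiled at 20 °C. The protocol also names 30 °C for the incubation, and only the ancestor and control titles carry a temperature. Each library holds poly-A RNA of about 100000 pooled whole larvae at L1, the first larval stage, so fewer cells of a type and less RNA per cell cannot be told apart. Every selection regime was a single population, and selection and drift cannot be told apart either. Nothing in the labels says that replicates came from separate cultures, and the spread that the p-values below measure may therefore be technical.

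C. remanei is a nematode with males and females. Larvae that hatch without food stop developing at L1 until they are fed. In nematodes, as in other animals, acute heat is met by the heat shock response, in which heat shock factor drives genes for chaperones that keep other proteins folded. The populations were compared to find transcripts that differed after selection. The files do not pair their identifiers with gene names, so the members are given by identifier, and what they encode and where they lie are not stated.

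Gene counts per library ran between 1406684 and 15755610 (median 4875498), and 3 counts stood for 0.190 to 2.13 CPM. Heat replicates 1 and 2 were the shallowest of all libraries. Reads outside genes took a mean of 28.5% ± 6.73 (SD, n = 8) of reads in heat, 17.3% ± 1.92 (n = 6) in oxidative, 18.4% ± 3.70 (n = 8) in control and 16.22% ± 4.61 (n = 6) in ancestor libraries. The heat mean was the highest, and the part of these reads in the members' levels was not tested. All 60 members had a lower mean in heat than in each other population also when counts were set against reads inside and outside genes together. That denominator itself lowers heat levels against the other populations. Over the 8241 genes it gave a median log2 ratio of -0.19 for heat over control, against 0.05 per gene counts. The count of 60 was thus close to fixed in advance, and nothing is read from it.

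The median member had a log2 ratio of -0.72 for heat over oxidative, -0.55 for heat over control and -0.53 for heat over ancestor, against medians of -0.09, 0.05 and 0.06 over the 8241 genes. At least a 2-fold lower level in heat, on the scale of mean CPM plus 1, was seen in 22 members against oxidative (1.03% of the 8241 genes), 9 against control (0.218%) and 9 against the ancestor (0.170%). A score of 1 or more, a 2-fold lower level against all 3, was held by 4 members. The population nearest to heat, which set the score, was the ancestor in 29 members, control in 19 and oxidative in 12. The highest mean was that of oxidative larvae in 37 members (61.7%), as it was in 60.5% of the 8241 genes. Together the 60 members took 2.85% of gene counts in heat libraries (range 2.37 to 3.58), 4.43% in oxidative (4.04 to 4.70), 4.03% in control (2.88 to 4.94) and 3.87% in ancestor libraries (3.23 to 4.43). These ranges overlapped between heat and control and between heat and the ancestor, and did not overlap between heat and oxidative.

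FL81_02867 stood apart from the rest of the members, with a score of 2.65 against 1.43 for the next. It had 0.643, 0, 1.62, 0.439, 2.79, 0.751, 0.990 and 1.60 CPM in heat replicates 1 to 8. In the oxidative libraries its lowest, median and highest levels were 4.83, 14.0 and 15.4 CPM, in control libraries 8.66, 26.9 and 32.6 CPM, and in ancestor libraries 7.26, 12.8 and 17.0 CPM. Every heat library lay below every other library. No other member showed this, and among all 8241 genes it held for 1 (0.0121%). The heat levels rested on 0 to 15 counts per library and those of the other libraries on 15 to 268. The mean was 1.10 ± 0.875 CPM in heat (SD, n = 8), against 12.2 ± 3.95 in oxidative (n = 6), 23.4 ± 9.33 in control (n = 8) and 12.57 ± 3.13 in ancestor libraries (n = 6).

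The other members with high scores overlapped between populations. FL81_08636 had 0.990 CPM as its lowest, 4.02 as its median and 4.83 as its highest heat level, with 19.3, 20.6 and 23.7 CPM in oxidative, 0.518, 16.6 and 38.2 CPM in control and 1.49, 12.7 and 22.3 CPM in ancestor libraries. All oxidative libraries were above all heat libraries, while control replicates 1, 7 and 8 and ancestor replicates 7 and 8 lay at or below the highest heat level. FL81_09359 had 3.51, 5.63 and 9.01 CPM as its lowest, median and highest heat levels, with 18.2, 23.0 and 26.8 CPM in oxidative, 3.50, 20.3 and 26.9 CPM in control and 5.33, 14.7 and 24.0 CPM in ancestor libraries. FL81_21381 had 0.867, 3.06 and 10.3 CPM in heat, 13.7, 17.4 and 25.8 CPM in oxidative, 0.453, 9.45 and 17.4 CPM in control and 0.444, 8.36 and 24.7 CPM in ancestor libraries. In both genes all oxidative libraries were above all heat libraries. For FL81_09359, control and ancestor replicates 7 and 8 lay below the highest heat level. For FL81_21381, control replicates 1, 6, 7 and 8 and ancestor replicates 4, 6, 7 and 8 did, and the highest heat level was that of heat replicate 1.

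FL81_09708 followed, with 1.502, 5.04 and 9.24 CPM as its lowest, median and highest levels in heat, 12.2, 15.2 and 18.4 CPM in oxidative, 2.58, 18.4 and 32.8 CPM in control and 3.87, 12.7 and 16.0 CPM in ancestor libraries. FL81_14955 was more abundant, with 16.8, 26.1 and 31.95 CPM in heat, 49.5, 57.3 and 76.5 CPM in oxidative, 17.0, 57.1 and 97.0 CPM in control and 24.6, 46.0 and 63.0 CPM in ancestor libraries. Heat again lay wholly below oxidative in both genes and overlapped the lowest control and ancestor libraries.

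**Figure D1:**
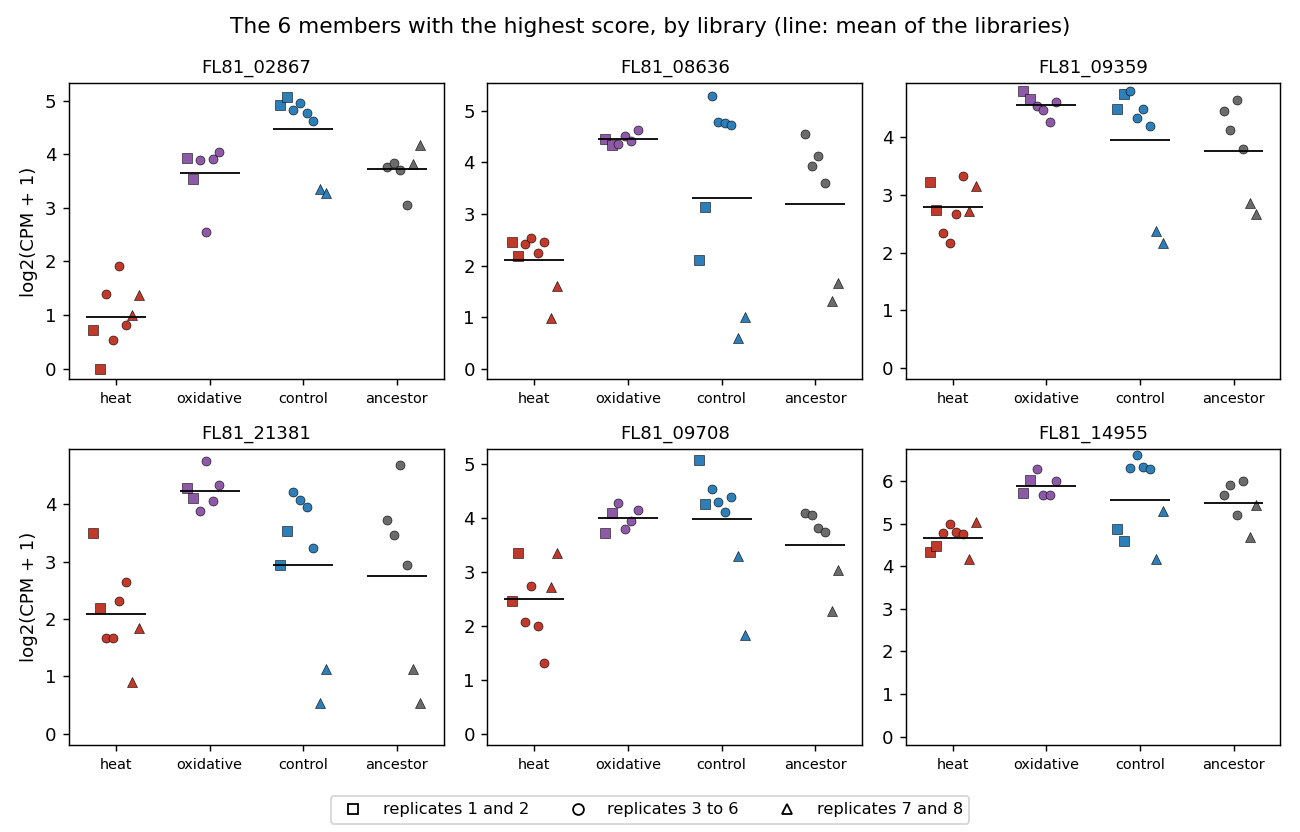
Each panel plots 1 of the 6 members with the highest score, as log2(CPM + 1) on the vertical axis, with 1 point per library and a line at the mean of the libraries. FL81_02867 has all 8 heat points below every other point, and in the other panels the points of control and ancestor replicates 7 and 8 (triangles) reach the heat points or lie close to them.

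The overlap held across the list. For the median member, 9 of the 20 libraries outside the heat population were above every heat library. The number ranged from 0 in 2 members to 20 in FL81_02867, and 11 members had 15 or more. It was not counted over the 8241 genes, so whether these values are unusual is not known. Every heat library was below every oxidative library in 25 members (4.05% of the 8241 genes), below every control library in 1 (0.0485%) and below every ancestor library in 1 (0.0243%), which was FL81_02867 in both cases. The rule used these contrasts, so the shares of all genes are given beside the counts for scale only. For the same reason nothing is read from the edgeR calls (adjusted p under 0.05), which were 26 members lower in heat than in oxidative larvae (3.61% of all genes tested), 9 lower than in control larvae (0.167%) and 4 lower than in the ancestor (0.0753%).

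**Figure D2:**
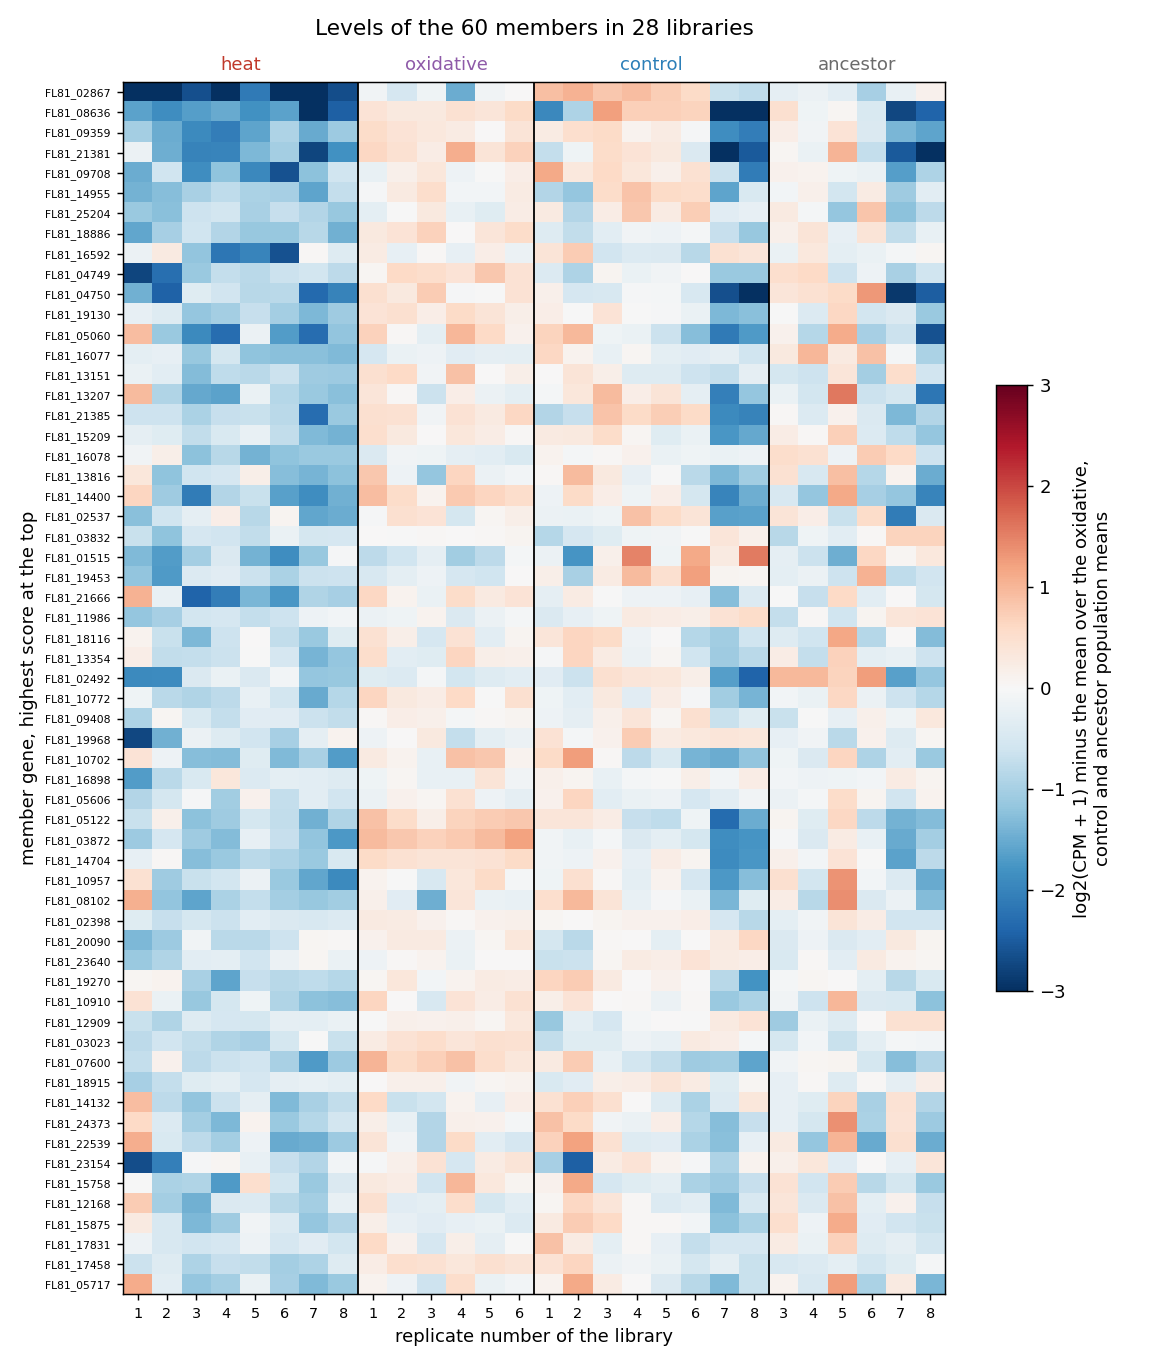
Rows are the 60 members from the highest score at the top to the lowest, columns are the 28 libraries, and colour is log2(CPM + 1) minus the mean of the other 3 population means on that scale, from -3 (blue) to 3 (red). FL81_02867 is blue across all 8 heat libraries, while many other members are also blue in control and ancestor replicates 7 and 8.

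The lower end of the list lay close to the genes left out. FL81_17831, FL81_17458 and FL81_05717 were the last members, with scores of 0.346, 0.346 and 0.345. FL81_05418, FL81_11835 and FL81_04740 came next, with 0.345, 0.343 and 0.343. FL81_17831 averaged 5.31 ± 0.769 CPM in heat, 7.70 ± 2.33 in oxidative, 7.02 ± 3.30 in control and 7.24 ± 2.88 CPM in ancestor libraries (SD, n = 8, 6, 8 and 6), and its levels overlapped between heat and every other population. FL81_17458 averaged 15.3 ± 2.75 CPM in heat, 33.9 ± 2.54 in oxidative, 24.6 ± 8.55 in control and 19.8 ± 2.62 CPM in ancestor libraries. FL81_05717 averaged 15.6 ± 12.7 CPM in heat, 20.2 ± 5.64 in oxidative, 20.1 ± 12.2 in control and 21.7 ± 15.8 CPM in ancestor libraries, and its heat libraries held 7.67 to 45.6 CPM. A total of 16 members had a score of 0.5 or more. The same rule was applied with another population in the place of heat. The gene at rank 60 scored 0.345 in the list lowest in heat, 0.863 in that lowest in oxidative, 0.398 in that lowest in control and 0.330 in that lowest in the ancestor. At rank 1 the scores were 2.65, 2.29, 0.943 and 1.23. A score of 1 or more was held by 4 genes lowest in heat, 39 lowest in oxidative, 0 lowest in control and 1 lowest in the ancestor.

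**Figure D3:**
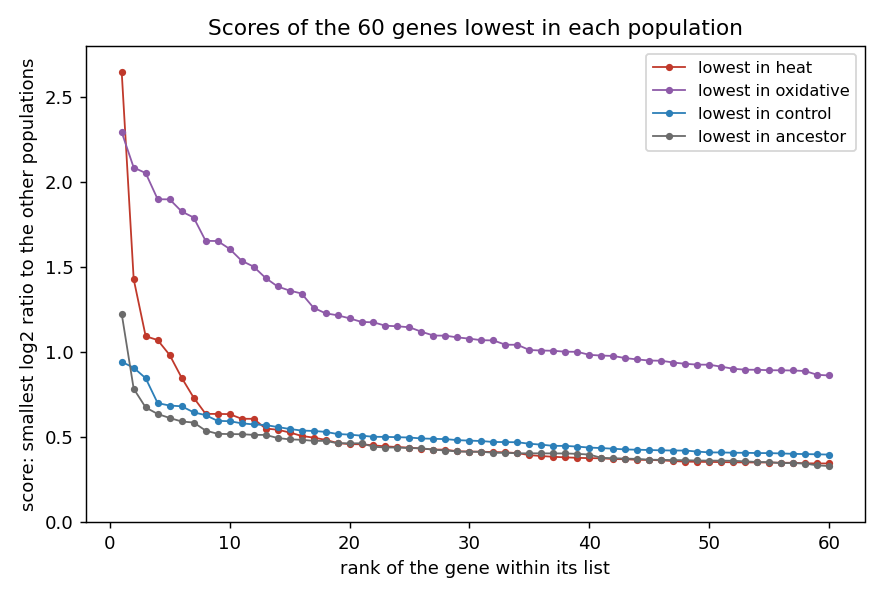
The score of each gene (log2 ratio, vertical axis) is plotted against its rank in the list of the 60 genes lowest in heat, oxidative, control or ancestor larvae. The heat list starts at 2.65 and falls to 0.345 at rank 60, near the control and ancestor lists, while the oxidative list stays higher, at 0.863.

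By mean level over all 28 libraries, 12 members were below 10 CPM, 36 between 10 and 100 and 12 above 100 CPM, with a median of 19.3 CPM against 26.4 CPM for the 8241 genes. FL81_23640 was the most abundant, at 14698 ± 3700 CPM in heat, 19116 ± 1526 in oxidative, 20137 ± 5064 in control and 18957 ± 3420 CPM in ancestor libraries (SD, n = 8, 6, 8 and 6). FL81_11986 averaged 3828 ± 981 CPM in heat, 5148 ± 616 in oxidative, 6213 ± 1438 in control and 5591 ± 1709 CPM in ancestor libraries. FL81_03023 averaged 3419 ± 794 CPM in heat, against 7017 ± 474 in oxidative, 4731 ± 1045 in control and 4377 ± 765 CPM in ancestor libraries. In all 3 of these genes the heat range overlapped the control and ancestor ranges. In FL81_03023 the heat libraries, at most 5182 CPM, stayed below the oxidative ones, at least 6200 CPM.

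At the median, members varied more between libraries of a population than the 8241 genes, which include them and had a higher median level. In oxidative libraries the 2 values were close. The part of abundance and of the rule in this was not tested. The median SD of log2(CPM + 1) among libraries was 0.556 for members and 0.435 for the 8241 genes in heat, 0.251 and 0.229 in oxidative, 0.680 and 0.424 in control, and 0.629 and 0.385 in ancestor libraries. Heat replicates 1 and 2 were the 2 lowest heat libraries in 11 members (6.84% of the 8241 genes), among them FL81_23640 at 8894 and 10372 CPM, against 13099 to 20055 CPM in heat replicates 3 to 8. They were the 2 highest in 9 members (27.0%). FL81_21666 and FL81_05060 had the largest ranges of log2 level over the heat libraries. FL81_21666 stood at 2363 and 985 CPM in heat replicates 1 and 2, at 216 to 444 CPM in replicates 3 to 6 and at 618 and 581 CPM in replicates 7 and 8. FL81_05060 stood at 52.7 and 12.1 CPM in heat replicates 1 and 2, at 4.83 to 23.9 CPM in replicates 3 to 6 and at 4.83 and 11.4 CPM in replicates 7 and 8. Heat replicate 1 was above every oxidative library of FL81_21666, of which the highest had 1784 CPM, and within the oxidative range of FL81_05060, which was 22.1 to 55.7 CPM.

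The list depended on that library. Without heat replicate 1, 23 of the 60 were again among the 60 genes with the highest score, and without heat replicates 1 and 2, left out after seeing the data, 22 were. FL81_02867 ranked first in every other setting of the rule that was run. All 60 members were lower in heat than in each other population under all of these settings but 3. This was by mean, or by median where the setting used medians. The exceptions were 58 members with replicates 3 to 6 alone, 58 without heat replicates 3 to 6 and 55 without ancestor replicate 5. A changed pseudocount or minimum leaves the means as they are, so those settings could not give another count. The rule selected for this order, and the counts are a description.

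Libraries numbered 7 and 8 stood apart in ancestor and control larvae, and this contrast involves no heat library. The means of the ancestor and control libraries did enter the rule, so the counts of members below are not independent of it. What the numbers mark is not stated in the labels. Fitted over the 12 ancestor and control libraries numbered 3 to 8 with population as a term, 24 of the 60 members differed between numbers 7 and 8 and numbers 3 to 6 (edgeR, adjusted p under 0.05), of which 20 were lower and 4 higher in 7 and 8. Over all 12337 genes tested, 12.1% differed, 5.96% lower and 6.18% higher. The median log2 fold change was -0.47 over members and -0.01 over all genes. The 4 libraries numbered 7 or 8 held 6718320 to 15755610 gene counts and the 8 numbered 3 to 6 held 3270394 to 6887393, and the part of depth was not tested.

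FL81_21381 had the largest fall, with 0.453 and 1.20 CPM in control replicates 7 and 8 and 1.19 and 0.444 CPM in ancestor replicates 7 and 8. In replicates 3 to 6 it had 17.4, 15.7, 14.4 and 8.39 CPM in control and 12.1, 10.03, 24.7 and 6.68 CPM in ancestor libraries. All 4 libraries numbered 7 or 8 were below the other 8 (log2 fold change -3.81, SE 0.33, edgeR adjusted p = 6.12e-06). FL81_08636 had 0.518 and 1.01 CPM in control replicates 7 and 8 and 1.49 and 2.16 CPM in the ancestor, against 25.4 to 38.2 CPM in control and 11.2 to 22.3 CPM in ancestor replicates 3 to 6 (-3.71, SE 0.36, edgeR adjusted p = 1.46e-05). The groups again did not overlap.

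FL81_03832 and FL81_12909 had the largest rises. FL81_03832 stood at 314 and 269.9 CPM in control replicates 7 and 8 and at 387 and 387 CPM in the ancestor, against 190.2 to 241 CPM in control and 137 to 249.6 CPM in ancestor replicates 3 to 6 (0.93, SE 0.21, edgeR adjusted p = 0.00974). FL81_12909 stood at 102 and 114 CPM in control and at 117 and 117 CPM in ancestor replicates 7 and 8, against 59.3 to 85.9 CPM in control and 39.9 to 86.1 CPM in ancestor replicates 3 to 6 (0.89, SE 0.22, edgeR adjusted p = 0.0169). All 4 libraries numbered 7 or 8 were above the others in both genes. The call of FL81_12909 was lost without ancestor replicate 8, control replicate 7 or control replicate 8.

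The heat libraries took no part in that fit. Of the 20 members called lower in ancestor and control libraries 7 and 8, 17 also had a lower mean in heat replicates 7 and 8 than in heat replicates 3 to 6, with a median log2 ratio of -0.59. FL81_09359 and FL81_09708 were among the exceptions, with ratios of 0.26 and 0.94. Over the 8241 genes 72.2% had a lower mean there, with a median of -0.21. FL81_08636 averaged 1.51 CPM in heat replicates 7 and 8 and 4.35 CPM in heat replicates 3 to 6, a log2 ratio of -1.09 on the CPM plus 1 scale, against -4.09 in control and -2.59 in the ancestor. FL81_21381 had a ratio of -0.69 in heat, -3.04 in control and -2.98 in the ancestor. Whether this ratio differs between populations was not tested.

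**Figure D4:**
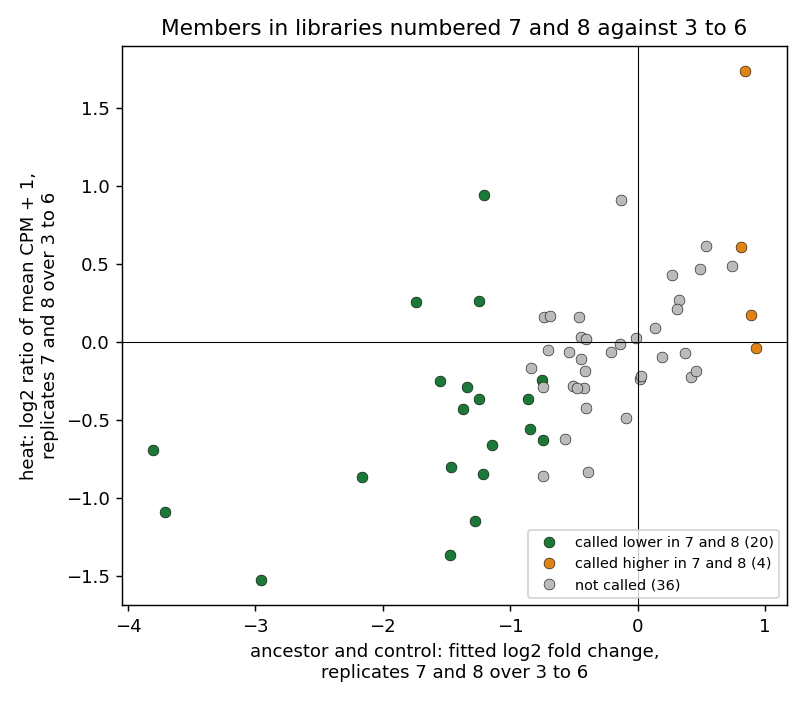
Each point is a member, with the fitted log2 fold change of replicates 7 and 8 over 3 to 6 in ancestor and control libraries on the horizontal axis and the log2 ratio of mean CPM + 1 for the same numbers in heat libraries on the vertical axis. Of the 20 members called lower (green), 17 are below 0 in heat.

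The difference between heat and the other populations was therefore looked at within numbers. Within replicates 3 to 6, 59 of 60 members had a lower mean in heat than in control and all 60 a lower mean than in the ancestor, with median log2 ratios of -0.66 and -0.81. Over the 8241 genes 50.6% and 59.4% had a lower mean in heat, with medians of -0.00 and -0.06. Within replicates 7 and 8, 33 members had a lower mean in heat than in control, as did 29.5% of the 8241 genes, with a median of -0.13 against 0.14 over all of these genes. In the same numbers 48 members had a lower mean in heat than in the ancestor, as did 64.4% of the 8241 genes, with a median of -0.41 against -0.10. Within replicates 1 and 2, 50 members had a lower mean in heat than in oxidative larvae (36.8% of the 8241 genes) and 55 a lower mean than in control larvae (42.7%). Of the 60 members, 59 were lower than both control and ancestor within 3 to 6, and 31 within 7 and 8. This joint count was not made over the 8241 genes, so nothing is read from it. The rule used the means of these libraries, and all values within numbers are a description. Each of the values within 7 and 8 rests on 2 libraries per population. Oxidative libraries were numbered 1 to 6 only.

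FL81_02867 averaged 1.30 CPM in heat replicates 7 and 8, against 8.96 CPM in control and 15.05 CPM in ancestor replicates 7 and 8. In replicates 3 to 6 it averaged 1.40 CPM in heat, against 26.9 in control and 11.3 CPM in the ancestor. Its mean was lower in heat at both sets of numbers. FL81_09359 averaged 6.74 CPM in heat, against 3.85 in control and 5.79 CPM in ancestor replicates 7 and 8, and 5.48 CPM in heat, against 21.2 in control and 18.6 CPM in ancestor replicates 3 to 6. FL81_09708 averaged 7.38 CPM in heat, against 5.69 in control and 5.52 CPM in ancestor replicates 7 and 8, and 3.37 CPM in heat, against 19.3 in control and 14.3 CPM in ancestor replicates 3 to 6. Both genes were lower in heat within 3 to 6 and not within 7 and 8. FL81_08636 and FL81_21381 had a higher mean in heat than in control within 7 and 8, with log2 ratios of 0.51 and 0.57, against -2.49 and -1.77 within 3 to 6. For heat over ancestor within 7 and 8 the ratios were -0.17 for FL81_08636 and 0.58 for FL81_21381.

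With replicates 3 to 6 alone, the numbers that all 4 populations share, every heat library was below every other library in 18 members (0.752% of the 8241 genes), and without numbers 7 and 8 in 4 members (0.0607%). With reads outside genes in the denominator the count was 2 (0.0364%). The 4 without numbers 7 and 8 were FL81_02867, FL81_09359, FL81_09708 and FL81_02398. FL81_02398 was named after its values were seen.

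**Figure D5:**
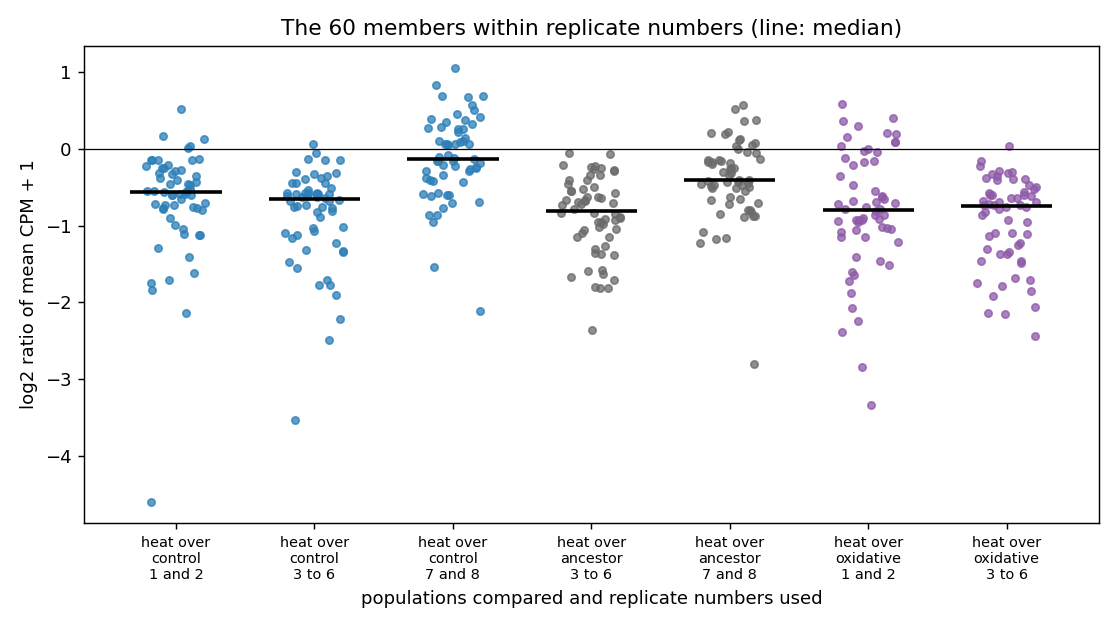
Each point is a member, with the log2 ratio of mean CPM + 1 of heat over control, ancestor or oxidative larvae within the replicate numbers named below it, and a line at the median. Within 3 to 6, 59, 60 and 59 of the 60 points lie below 0 for heat over control, ancestor and oxidative, with medians of -0.66, -0.81 and -0.75. They spread around 0 for heat over control within 7 and 8, with a median of -0.13.

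The 3 populations outside heat were also compared with each other. The rule did not set them against each other, but it used their means, through the minimum and the smallest ratio to heat. The shares of members called are thus not independent of the rule. All genes tested also include genes that the rule did not keep. All 60 members passed the filter on low counts. Oxidative and control larvae differed in 5 members, 3 higher and 2 lower in oxidative larvae (edgeR, adjusted p under 0.05, n = 6 and 8), a share of 8.33% against 14.0% of all 11952 genes tested (6.84% higher and 7.18% lower). With only these 2 populations in the fit, 12 members and 2142 of 11133 genes differed. With replicates 3 to 6 only it was 9 members and 1009 of 11623 genes. In the fit of all libraries, used below, the median log2 fold change was 0.01 over members and -0.03 over all genes. FL81_03872 had 29.2, 33.2 and 41.6 CPM as its lowest, median and highest levels in oxidative libraries, against 4.08, 13.4 and 16.8 CPM in control libraries (1.42, SE 0.25, edgeR adjusted p = 0.000228). The groups did not overlap, and heat libraries, at 4.595 to 14.6 CPM, lay within the control range. FL81_07600 had 18.3, 23.2 and 29.9 CPM in oxidative libraries, against 4.14, 8.81 and 24.9 CPM in control libraries (1.06, SE 0.24, edgeR adjusted p = 0.00347). Its highest control libraries were replicates 1 and 2. FL81_05122, named after its values were seen, was the other member that was higher (1.01, SE 0.29, edgeR adjusted p = 0.0188).

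The 2 members that were lower in oxidative than in control larvae were FL81_02867 and FL81_01515. FL81_02867 had a log2 fold change of -1.01 (SE 0.29, edgeR adjusted p = 0.0171), and its oxidative libraries, at 4.83 to 15.4 CPM, overlapped control replicates 7 and 8 and no other control library. Its call was lost without oxidative replicate 4, the lowest oxidative library (edgeR adjusted p = 0.05095). FL81_01515 had 97.6, 126 and 194 CPM as its lowest, median and highest oxidative levels, against 58.6, 236 and 602 CPM in control libraries (-1.47, SE 0.46, edgeR adjusted p = 0.0292). Control libraries of this gene spanned the whole oxidative range, and the call was lost in 10 of 22 other fits, where the edgeR adjusted p ranged up to 0.0989. Without oxidative replicate 4 the count of members that differed was 3, and that of all genes 1120 of 12075.

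Oxidative larvae and the ancestor differed in 4 members, 2 higher and 2 lower in oxidative larvae (edgeR, n = 6 and 6), a share of 6.67% against 5.55% of all genes (2.38% higher and 3.17% lower). FL81_03872 was higher here too, with ancestor libraries at 5.51, 13.8 and 20.95 CPM as lowest, median and highest (1.19, SE 0.26, edgeR adjusted p = 0.00529). FL81_07600 was higher (0.94, SE 0.26, edgeR adjusted p = 0.0255), with ancestor levels of 5.36, 11.4 and 15.2 CPM, all below the oxidative ones. Its call was lost in 5 of 20 other fits, among them those without ancestor replicate 7, ancestor replicate 8 or oxidative replicate 1, and when numbers 7 and 8 were dropped, a choice made after seeing the data (0.70, edgeR adjusted p = 0.0715). The comparisons of oxidative larvae with the ancestor and with control share the oxidative libraries.

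FL81_16077 and FL81_16078 were the 2 members lower in oxidative larvae than in the ancestor. FL81_16077 had 26.8, 31.8 and 34.8 CPM as its lowest, median and highest oxidative levels, against 19.5, 47.3 and 77.7 CPM in the ancestor (-0.87, SE 0.24, edgeR adjusted p = 0.0265). FL81_16078 had 368, 412 and 471 CPM in oxidative libraries, against 328, 709 and 850 CPM in the ancestor (-0.82, SE 0.22, edgeR adjusted p = 0.0251). In both genes ancestor replicate 8 was below every oxidative library. The comparison of only the 2 populations also lost the call of FL81_16077. Both calls were lost without ancestor replicate 4 or 6 or oxidative replicate 1, 4, 5 or 6. The count of members that differed was 1 without oxidative replicate 1 (428 of all 12090 genes) and 7 without ancestor replicate 5 (978 of 12055). It was 2 without ancestor replicate 4 (474 of 12119) or 6 (479 of 12121). It was also 2 without oxidative replicate 4 (400 of 12075), 5 (408 of 12093) or 6 (430 of 12112).

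Control larvae and the ancestor differed in 0 members (edgeR, adjusted p under 0.05, n = 8 and 6), against 0.0669% of all genes. With DESeq2 it was also 0 members, against 24 of 10757 genes. At an unadjusted p under 0.05, 2 members differed, FL81_02867 (0.77) and FL81_16077 (-0.49), as did 470 of all 11952 genes. With replicates 3 to 6 alone, 3 members were higher in control larvae, and 83 of all 11623 genes tested differed in either direction. The 3 members were FL81_02867 (1.29, edgeR adjusted p = 0.0415), FL81_08636 (0.90, edgeR adjusted p = 0.0114) and FL81_21385 (0.90, edgeR adjusted p = 0.000578), the last named after its values were seen.

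The identifier numbers of the members were compared as a feature the rule did not use. The files do not say that numbers follow the order of genes on a chromosome. Of the 60 members, 2 pairs had consecutive numbers, FL81_04749 with FL81_04750 and FL81_16077 with FL81_16078, and FL81_21381 and FL81_21385 were 4 numbers apart, a pair picked after its values were seen. Across the 28 libraries, after the population means were taken off, log2 levels had a correlation of 0.49 in the first pair, 0.77 in the second and 0.82 in the third, a description over libraries in which both genes share depth and replicate numbers. Reads of near-identical or overlapping genes could be split or shared between such neighbours, which was not tested. The members had 36 neighbours by 1 number that were kept by the rule and were not members. Their median score was -0.12, against -0.16 over all 8241 genes, and 11 of the 36 (30.6%) had a score above 0, as did 17.8% of all genes.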

How the data were processed

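For each library the authors deposited a count table, giving reads per gene identifier and 5 summary lines. Alignment used GSNAP (2013-03-31) and counting used HTSeq, per the submitters' processing notes. Build, annotation and strand setting: not given in the sources used here. Overlapping antisense genes may therefore share reads. The summary lines stayed out of library sizes and tests. Of the 25337 identifiers, 0 matched a RefSeq gene table of the species, so planned lists of named genes were not used and no sequence is shown.

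CPM were computed from the counts as deposited. Tests used edgeR 4.0.16 in R 4.3.3, with filterByExpr (minimum count 10), TMM, a quasi-likelihood fit of all 28 libraries with 1 coefficient per population, and Benjamini-Hochberg adjustment over all genes at 0.05. Standard errors were derived from each fold change and its F statistic. Replicate numbers 7 and 8 were tested against 3 to 6 in a separate fit of 12 ancestor and control libraries with population as a term. The code was tested on simulated data. DESeq2 1.42.0, other scalings and filters, a replicate block and left-out libraries were alternatives. Members were named for the highest and lowest scores, the highest abundance, the largest ranges in heat and the largest called changes. The members, lists, tests and this rule were chosen with earlier results of these data known.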

Additional observations from a re-analysis of the deposited data

Results flagged for a closer look

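Of 84 groups of libraries (21 named members in 4 populations), 9 had a highest library set off from the rest. The gap was large against the range of the group. The limit used is passed by chance in about 5% of groups when values are normally distributed, which was not checked for CPM. All 21 members were named by their values in these libraries, FL81_21666 and FL81_05060 for their range over the heat libraries. The heat values of FL81_21666 and FL81_05060 are thus a description, and the count of 9 is not set against chance. Heat replicate 1 had 10.3 CPM of FL81_21381 (0.867 to 5.26 CPM in the other heat libraries), 45.6 CPM of FL81_05717 (7.67 to 17.9), 2363 CPM of FL81_21666 (216 to 985) and 52.7 CPM of FL81_05060 (4.83 to 23.9). Heat replicate 7 had 5182 CPM of FL81_03023 (2633 to 3668 in the others), and heat replicate 2 had 15.6 CPM of FL81_07600 (3.71 to 9.29). Control replicate 1 had 14.3 CPM of FL81_17831 (4.09 to 8.84 in the other control libraries) and 60.4 CPM of FL81_16077 (25.3 to 41.5). Control replicate 2 had 46.4 CPM of FL81_05717 (7.57 to 24.5). Replicates 1 and 2 were the shallowest heat libraries and the shallowest control libraries, and the part of depth was not tested.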

How the results depend on the processing

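FL81_02867 ranked first under every setting of the rule that was run. Of the 60 members, 26 were again among the 60 with the median over libraries, 28 with a minimum of 1 CPM, 21 with replicates 3 to 6 only, 25 without heat replicates 3 to 6, 22 without heat replicates 1 and 2 (added after seeing the data), and 23 to 59 when 1 library was left out. With TMM scaling 42 were, and with reads outside genes in the denominator 44. For heat over control that denominator gave a median log2 ratio of -0.19 over all 8241 genes, against 0.05 per gene counts, and -0.75 over members, against -0.55. Members with every heat library below every other library numbered 2 with that denominator (0.0364% of the 8241 genes), 18 with replicates 3 to 6 only (0.752%) and 4 without numbers 7 and 8 (0.0607%). They numbered 2 without heat replicates 3 to 6 (0.0485%), 2 without heat replicates 1 and 2 (0.0243%) and 1 to 2 when 1 library was left out (0.0121% to 0.0243%). Between oxidative and control larvae, 12 members differed when the fit held no other population (2142 of all 11133 genes), 9 with replicates 3 to 6 only (1009 of 11623), against 5 (1675 of 11952), and 3 to 7 when 1 library was left out (1120 to 1920 genes). Between oxidative larvae and the ancestor, 7 differed with replicates 3 to 6 only (608 of 11623 genes), 7 with replicates 1 to 6 only (520 of 11941, added after seeing the data) and 1 to 7 when 1 library was left out (400 to 978 genes). Between control larvae and the ancestor, 3 differed with replicates 3 to 6 only (83 of 11623 genes), 1 with replicates 1 to 6 only (52 of 11941) and 0 whichever library was left out (3 to 20 genes). Numbers 7 and 8 against 3 to 6 differed in 18 to 28 members when 1 library was left out, with 636 to 2085 of all genes called. With DESeq2 they differed in 27 members (1852 of 13038 genes). The causes were not tested.

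With the replicate number as a block, 6 members differed between oxidative and control larvae (1712 of all 11952 genes). Between oxidative larvae and the ancestor 6 differed (675 genes), and between control larvae and the ancestor 0 (17 genes). The block fit lost the calls of FL81_01515 (edgeR adjusted p = 0.0901) and of FL81_07600 against the ancestor (edgeR adjusted p = 0.0593). Same-numbered libraries were taken as paired only if the deviations of every pair correlated above 0.1, which no comparison met. The correlations ran from -0.35 to 0.23 between oxidative and control, -0.34 to 0.19 between oxidative and ancestor, -0.15 to 0.52 between control and ancestor (4 of 6 above 0.1) and -0.24 to 0.67 between heat and control (7 of 8 above 0.1), so some numbers did deviate together. No named fold change that was tested changed sign. Levels near 1 CPM rest on few reads in the shallowest libraries.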

Other observations

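FL81_02868, the identifier next to FL81_02867, was too low to be scored and was picked after its values were seen. It had 0 counts in 5 of the 8 heat libraries and at most 2 counts in any heat library, 4 counts in all, with a highest level of 1.29 CPM. The oxidative libraries held 1 to 10 counts each, at 0.203 to 2.03 CPM, the control libraries 3 to 16, at 0.276 to 5.53 CPM, and the ancestor libraries 4 to 23, at 0.581 to 1.505 CPM. The heat range overlapped that of every other population, and 3 counts in the shallowest heat library are 2.13 CPM.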
